A study of Mus musculus with 10 samples.

Results

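The amino acid transporter genes were followed in colon tumours of mice, taking every gene whose symbol starts with Slc1a, Slc3a, Slc6a, Slc7a, Slc36a, Slc38a or Slc43a. The rule used names only and no measured value. It found 63 of the 18193 genes with a probe set on the array, namely 7 Slc1a, 2 Slc3a, 21 Slc6a, 16 Slc7a, 5 Slc36a, 9 Slc38a and 3 Slc43a genes. Among them are the opposite-strand genes Slc36a1os, Slc7a6os and Slc6a19os, which are not carriers, and Slc6 carriers of neurotransmitters, creatine and taurine.

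The study asked how tumours that lack Bcl9 and Bcl9l, co-factors of beta-catenin in Wnt-driven transcription, differ from wild-type tumours. Laser-dissected tumour tissue was taken from vil-Cre-Bcl9-/-/Bcl9l-/- mice (KO, 5 tumours of 3 mice) and from wild-type mice (WT, 5 tumours of 2 mice), all of a 129SvEv/C57BL/6/DBA/2 mixed background. Mice of both groups were 6 to 8 weeks old when they received dimethylhydrazine at 44 mg/kg, which the liver converts to the carcinogen azoxymethane, and afterwards drank 2% dextran sulfate sodium, which injures the colon, for 7 days. Each tumour was hybridised to 1 Affymetrix array, and the values are log2 signals per probe set. The vil-Cre transgene drives Cre from the villin promoter, which is active in intestinal epithelium. Of the KO tumours, 2 and 6 came from mouse 02, 9 and 11 from mouse 04 and 7 from mouse 99. Of the WT tumours, 1, 3, 12 and 13 came from mouse 72 and 8 from mouse 82, so the WT values rest mostly on 1 animal. The labels do not say whether WT mice carried Cre.

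The 10 arrays had median signals from 6.43 to 6.50 log2. WT tumour 1 had the lowest mean correlation with the other arrays, at 0.964, against 0.970 to 0.976 for the rest. By unique number the samples form the ranges 191 to 229 (KO tumour 7 and 4 WT tumours) and 254 to 258 (4 KO tumours and WT tumour 1). The labels do not say what these ranges stand for. The 5 probe sets of Bcl9 and Bcl9l checked nothing about the genotypes, because their place relative to the deleted part is not given, and 4 of them had a higher mean in KO tumours. The fifth, a Bcl9l probe set at a low signal, was at 4.62 ± 0.05 log2 in KO and 4.76 ± 0.05 log2 in WT tumours, without overlap. The signal of epithelial markers, averaged over the 10 listed genes, lay between 11.75 and 12.04 log2 in KO tumours and between 10.92 and 12.35 in WT tumours.

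Amino acid transporters move amino acids across the plasma membrane, the lysosomal membrane and, in polarised epithelia, between the gut lumen and the blood. The heteromeric transporters consist of a heavy chain, Slc3a2 (4F2hc, CD98) or Slc3a1 (rBAT), which brings a light chain of the Slc7 family to the membrane. The light chain does the transport and, for most partners of Slc3a2, exchanges one amino acid for another. Most Slc38 and Slc1 carriers depend on sodium, and they load cells with glutamine, alanine, serine or glutamate. In the colon they supply epithelial, tumour and infiltrating immune cells.

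Of the 63 genes, 33 had a mean signal at or above 5.82 log2, the level filter, and were tested among 12250 genes. The other 30 lay under it and are given by their values. In KO tumours 4 of the 33 fell, 0 rose and 29 did not pass the threshold of 0.05 on the adjusted p (limma, mouse as a random block, adjusted over all genes tested). The genes that fell were Slc7a8, Slc3a2, Slc1a4 and Slc38a9. Over all genes tested, 2.93% were called lower and 4.16% higher in KO tumours. At an unadjusted p under 0.05, 8 of the 33 were lower, against 9.58% of all genes, and 1 was higher, against 12.8% of all genes. The KO and WT tumours did not overlap for 3 genes with the lower values in KO and for 0 with the higher values in KO, where 3.79% and 5.33% of all genes showed such a separation. The differences (KO minus WT) had a median of −0.07 log2 over the 33 genes and 0.03 over all genes, with 19 of the 33 below 0 and 14 above.

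**Figure D1:**
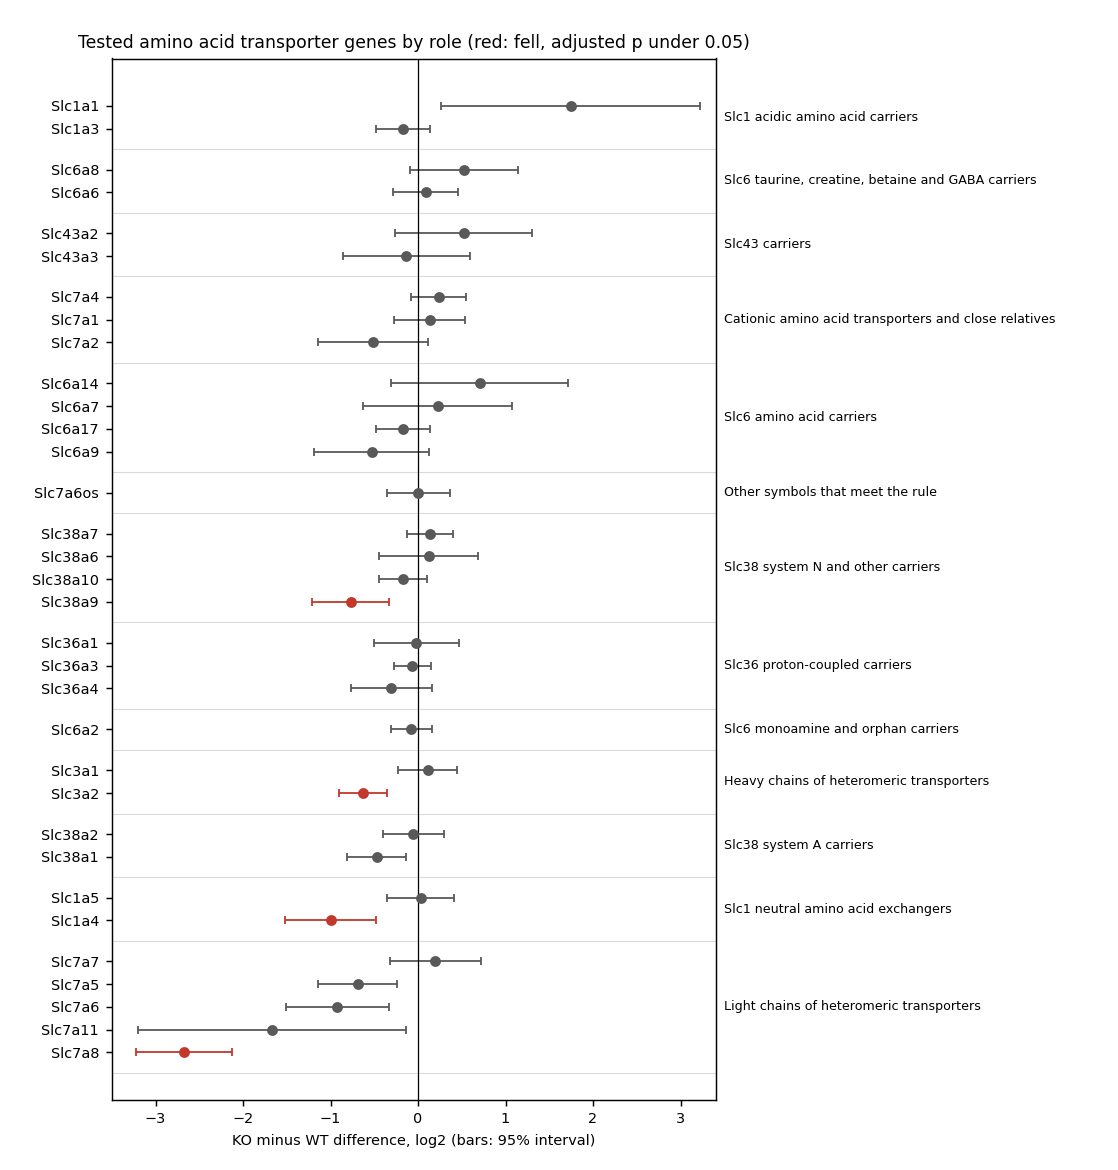
KO minus WT difference in log2 for the 33 tested amino acid transporter genes (x axis; points with 95% intervals from limma), grouped by role down the page. The 4 genes in red, Slc7a8, Slc3a2, Slc1a4 and Slc38a9, passed the threshold and lie below 0, and no gene passed above 0.

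The promoter sequences of the 3 genes that fell without overlap between the groups are shown because they are the stretches on which a shared motif could be looked for. They are the 250 bases before the RefSeq start of each gene (assembly GRCm38.p6), written 5′ to 3′ on the gene's strand, and the last base printed is next to the start. Slc7a8 lies on the minus strand at chr14:54781887-54782136, Slc38a9 on the plus strand at chr13:112660516-112660765 and Slc3a2 on the minus strand at chr19:8713898-8714147. Capitals mark matches to 4 motifs on either strand.
Slc7a8: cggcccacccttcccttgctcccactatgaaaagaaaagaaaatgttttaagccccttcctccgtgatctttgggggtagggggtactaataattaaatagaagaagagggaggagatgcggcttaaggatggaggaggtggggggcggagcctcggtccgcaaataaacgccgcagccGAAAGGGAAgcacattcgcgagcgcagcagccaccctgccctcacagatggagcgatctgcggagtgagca
Slc3a2: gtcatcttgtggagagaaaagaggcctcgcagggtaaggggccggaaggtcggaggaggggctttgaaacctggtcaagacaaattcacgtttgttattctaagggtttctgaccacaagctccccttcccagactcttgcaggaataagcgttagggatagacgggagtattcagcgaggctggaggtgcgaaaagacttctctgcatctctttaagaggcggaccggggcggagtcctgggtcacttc
Slc38a9: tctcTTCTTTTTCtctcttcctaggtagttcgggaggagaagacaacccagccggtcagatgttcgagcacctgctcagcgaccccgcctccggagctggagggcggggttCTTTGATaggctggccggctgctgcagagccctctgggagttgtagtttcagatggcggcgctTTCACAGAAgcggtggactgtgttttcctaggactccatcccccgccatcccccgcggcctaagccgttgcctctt

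The motifs searched were the TCF/LEF element CTTTGAT, bound by the partners of beta-catenin, the ATF4 composite element TGATGNAA of the amino acid response, the GAS element TTCNNNGAA of interferon gamma signalling and the ISRE core GAAANNGAA of interferon regulatory factors. The Slc7a8 window holds 1 match, to the ISRE core, which begins 71 bases before the start. The Slc38a9 window holds the TCF/LEF element 139 bases before the start, the GAS element 76 bases before it and the ISRE core, read on the opposite strand, 246 bases before it. None of these matches overlap each other, and the Slc3a2 window has none of the 4 motifs. Of 32851 windows of the same length in the table, 3.21% hold the TCF/LEF element, 3.45% the ATF4 composite element, 7.02% the GAS element and 7.13% the ISRE core. The letters alone show no binding, and G and C make up 55.6% of the Slc7a8 window, 53.6% of the Slc3a2 window and 60% of the Slc38a9 window.

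Slc7a8 encodes LAT2, a light chain that exchanges neutral amino acids and sits on the basolateral side of intestinal and renal epithelium. Its signal was 5.12, 5.56, 5.23, 5.11 and 5.17 log2 in KO tumours 2, 6, 7, 9 and 11, and 8.09, 7.66, 8.75, 7.36 and 7.53 log2 in WT tumours 1, 3, 8, 12 and 13 (probe set 1417929_at). The 5 KO tumours lie within a narrow band, all of it below the lowest WT tumour. The means were 5.24 ± 0.19 in KO and 7.88 ± 0.56 in WT tumours (SD over n = 5 tumours a group). The difference was −2.67 ± 0.25 log2 (SE), with a 95% interval from −3.22 to −2.12 and an adjusted p of 0.000301 (limma), a 6.37-fold lower level in KO. The KO mean lies under the level filter, where background was not assessed, so this fold is not exact. Slc7a8 was thus tested through its WT signal, and in the fit without a level filter it also passed (adjusted p = 0.000297, limma). All KO animals were low, with mouse means of 5.34, 5.14 and 5.23 log2 in mice 02, 04 and 99, against 7.66 and 8.75 in WT mice 72 and 82. In these dissected tissues a smaller share of cells that express a gene and less RNA per cell cannot be told apart.

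Slc3a2 encodes the heavy chain that LAT2, like LAT1, xCT and the y+LAT light chains, needs to reach the surface. It read 8.91, 8.70, 8.79, 9.02 and 9.02 log2 in KO tumours 2, 6, 7, 9 and 11, and 9.74, 9.52, 9.58, 9.19 and 9.52 log2 in WT tumours 1, 3, 8, 12 and 13 (probe set 1425364_a_at). The groups did not overlap, and WT tumour 12 came nearest to the KO tumours. The means were 8.89 ± 0.14 in KO and 9.51 ± 0.20 in WT tumours (SD over n = 5 tumours a group), and the difference was −0.63 ± 0.12 log2 (SE; 95% interval −0.90 to −0.35; adjusted p = 0.0149, limma), a 1.54-fold lower level. The other heavy chain, Slc3a1, which serves cystine and dibasic amino acid uptake in kidney and small intestine, averaged 7.50 ± 0.21 in KO and 7.40 ± 0.26 in WT tumours. Its difference of 0.11 ± 0.15 log2 did not pass (adjusted p = 0.727).

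Besides Slc7a8, 4 light chains were tested, and 3 of them had negative differences that did not pass. Slc7a6 encodes y+LAT2, which exports cationic amino acids in exchange for glutamine and sodium. Its signal was 7.59, 6.84, 7.58, 6.42 and 6.64 log2 in KO tumours 2, 6, 7, 9 and 11, and 8.19, 7.74, 7.56, 7.96 and 8.33 log2 in WT tumours 1, 3, 8, 12 and 13. The difference was −0.92 ± 0.27 log2 (adjusted p = 0.0652), and it passed with no mouse block (adjusted p = 0.0447). Leaving out KO tumour 2 also gave a pass (adjusted p = 0.0358), as did leaving out KO tumour 7, the only one of mouse 99 (adjusted p = 0.0348). With the same fit counted again as mouse 99 left out, Slc7a6 passed in only 4 of 28 alternatives. WT tumour 8 lay just below the highest KO tumours, and the KO tumours of mouse 04 were the lowest of all.

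Slc7a5 and Slc7a11 were picked out after their values were seen, since the naming rule did not reach them. Slc7a5 encodes LAT1, the exchanger that brings leucine and other large neutral amino acids into growing cells. It measured 8.00, 7.55, 7.87, 7.14 and 7.08 log2 in KO tumours 2, 6, 7, 9 and 11, and 8.30, 8.36, 7.99, 7.98 and 8.51 log2 in WT tumours 1, 3, 8, 12 and 13. The overlap is slight, between KO tumour 2 and the lowest WT tumours, and the tumours of mouse 04 were again lowest. The difference was −0.69 ± 0.20 log2 (adjusted p = 0.0724), and it passed without KO tumour 2 (−0.80 ± 0.19 log2, adjusted p = 0.0377). That was the only 1 of 28 alternatives in which Slc7a5 passed. Slc7a11 encodes xCT, which takes up cystine in exchange for glutamate and so supplies glutathione synthesis. Its signal varied widely, at 6.75, 4.67, 5.66, 5.77 and 7.32 log2 in KO tumours 2, 6, 7, 9 and 11, and 8.38, 7.19, 8.56, 5.59 and 8.63 log2 in WT tumours 1, 3, 8, 12 and 13. WT tumour 12 read like the KO tumours, and the difference of −1.67 ± 0.69 log2 did not pass (adjusted p = 0.183).

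Slc7a7, which encodes y+LAT1 of epithelia and macrophages, was the tested light chain above 0, at 8.34 ± 0.07 in KO and 8.17 ± 0.55 in WT tumours (SD over n = 5 tumours a group; difference 0.20 ± 0.23 log2, adjusted p = 0.671). The median difference of the 5 tested light chains was −0.92 log2. Without mouse 72 a single WT tumour, of low Slc7a7, remains, and Slc7a7 then passed as higher in KO (1.0 ± 0.16 log2, adjusted p = 0.0316). The other 5 light chains, Slc7a9, Slc7a10, Slc7a12, Slc7a13 and Slc7a15, lay under the level filter.

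**Figure D2:**
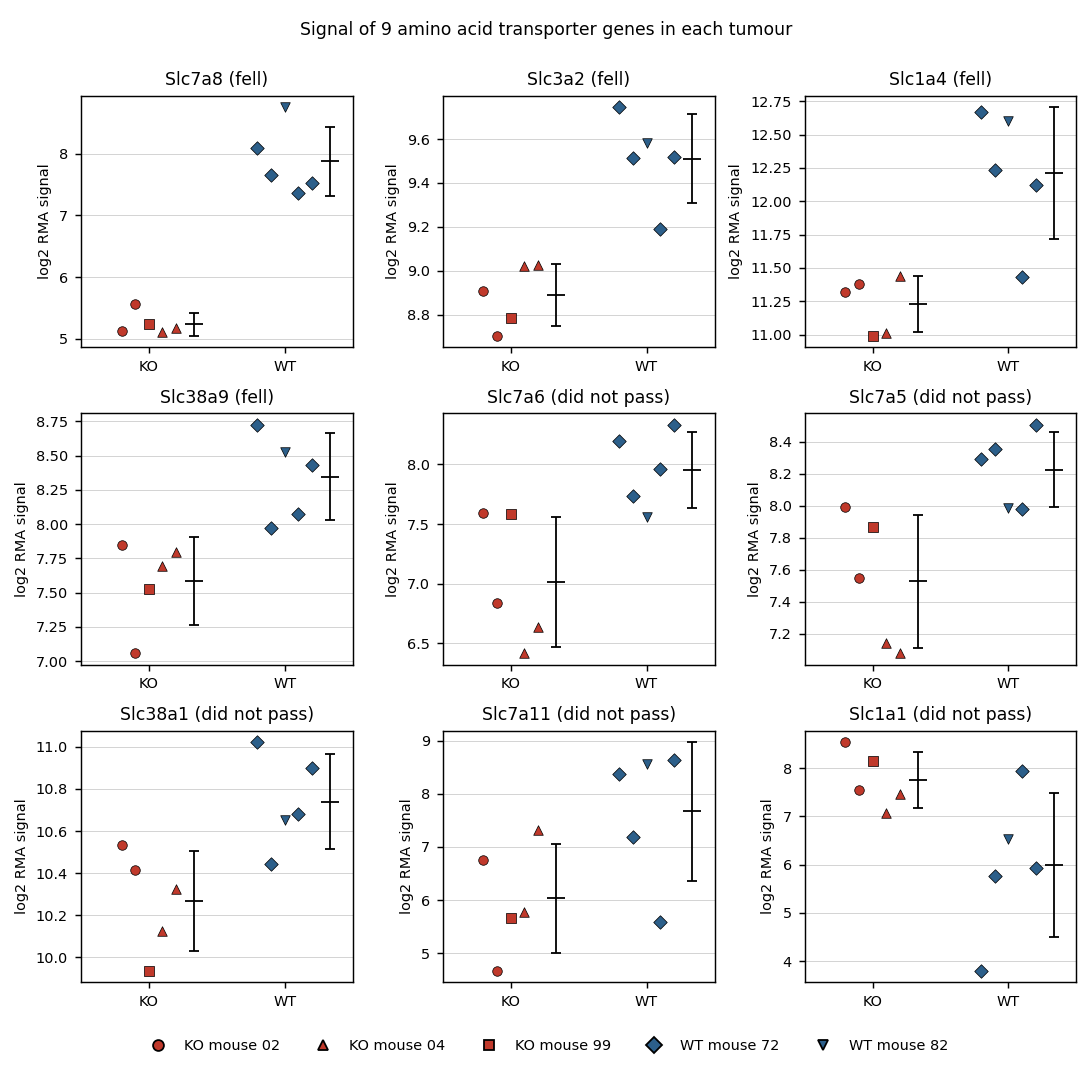
Signal in log2 (y axis, a scale of its own for each gene and not starting at 0) of 9 amino acid transporter genes in each of the 5 KO and 5 WT tumours. Symbols mark the mouse, and the bar beside each group shows the mean and SD. For Slc7a8, Slc3a2 and Slc38a9 every KO tumour lies below every WT tumour, while Slc1a1 and Slc7a11 spread over several log2 units in WT tumours.

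Among the Slc1 exchangers of neutral amino acids, Slc1a4 fell and Slc1a5 did not pass. Slc1a4 encodes ASCT1, a sodium-dependent exchanger of alanine, serine, cysteine and threonine. It was at 11.32, 11.38, 10.99, 11.01 and 11.44 log2 in KO tumours 2, 6, 7, 9 and 11, and at 12.67, 12.23, 12.60, 11.44 and 12.12 log2 in WT tumours 1, 3, 8, 12 and 13 (probe set 1456003_a_at). WT tumour 12 sat at the level of the highest KO tumour, and the other WT tumours were above all KO tumours. The difference was −1.0 ± 0.23 log2 (SE; 95% interval −1.52 to −0.48; adjusted p = 0.0293, limma), a 2.00-fold lower level. All 3 probe sets of the gene were lower in KO, by −1.44 to −0.98 log2, and for 1 of them the groups did not overlap. Slc1a5 encodes ASCT2, a glutamine carrier of proliferating cells, and averaged 8.67 ± 0.29 in KO and 8.64 ± 0.26 in WT tumours (SD over n = 5 tumours a group; 95% interval of the difference −0.35 to 0.41 log2, adjusted p = 0.945).

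The acidic amino acid carrier Slc1a1 (EAAC1), which takes up glutamate, aspartate and cysteine, had the largest positive difference of the 33 tested genes. It was at 8.54, 7.55, 8.14, 7.08 and 7.46 log2 in KO tumours 2, 6, 7, 9 and 11, and at 3.80, 5.76, 6.53, 7.95 and 5.93 log2 in WT tumours 1, 3, 8, 12 and 13. Again it was WT tumour 12 that lay among the KO tumours, while WT tumour 1 was far below them. The difference of 1.74 ± 0.67 log2 did not pass (adjusted p = 0.156), with all 3 probe sets higher in KO, by 0.44 to 1.76 log2. Without WT tumour 12 it was 2.23 ± 0.53 log2 (adjusted p = 0.0341), with the number range as a covariate 2.74 ± 0.68 log2 (adjusted p = 0.0445), and within numbers 191 to 229 it was 1.60 ± 0.79 log2 (adjusted p = 0.545). Within numbers 254 to 258, where the only WT tumour is the low tumour 1, it was 3.86 ± 0.53 log2 (adjusted p = 0.0172). The glial glutamate carrier Slc1a3 read 5.75 ± 0.11 in KO and 5.92 ± 0.27 in WT tumours, close to the level filter, and did not pass (−0.17 ± 0.14 log2, adjusted p = 0.526). Its other 5 probe sets, all of lower signal, were higher in KO, by 0.01 to 0.20 log2.

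In the Slc38 family, Slc38a9 fell. It encodes a lysosomal membrane protein that senses arginine for mTORC1 and lets leucine and other amino acids out of the lysosome. Its signal was 7.85, 7.06, 7.53, 7.69 and 7.80 log2 in KO tumours 2, 6, 7, 9 and 11, and 8.72, 7.97, 8.53, 8.07 and 8.43 log2 in WT tumours 1, 3, 8, 12 and 13 (probe set 1456338_at). The groups did not overlap, although KO tumour 2 and WT tumour 3 lay close together. The difference was −0.77 ± 0.20 log2 (SE; 95% interval −1.21 to −0.33; adjusted p = 0.0441, limma), a 1.70-fold lower level. The gene has 7 probe sets, and all 7 were lower in KO, by −1.09 to −0.42 log2, 3 of them without overlap. These probe sets read the same tumours and are not independent of each other.

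The system A carriers Slc38a1 and Slc38a2 take up glutamine and alanine with sodium, and neither passed. Slc38a1 was at 10.53, 10.42, 9.94, 10.13 and 10.32 log2 in KO tumours 2, 6, 7, 9 and 11, and at 11.02, 10.44, 10.65, 10.68 and 10.90 log2 in WT tumours 1, 3, 8, 12 and 13. WT tumour 3 alone lay within the KO range. The difference was −0.47 ± 0.15 log2 (adjusted p = 0.0967), and both probe sets were lower, 1 of them without overlap. When the probe sets of each gene were averaged, Slc38a1 passed, at −0.48 ± 0.09 log2 (adjusted p = 0.0105). It also passed with the number range as a covariate (−0.70 ± 0.15 log2, adjusted p = 0.0255) and without x_at or s_at probe sets (−0.48 ± 0.12 log2, adjusted p = 0.0434). These were the only 3 of 28 alternatives in which Slc38a1 passed. Slc38a2, the system A gene that amino acid shortage is known to induce, averaged 10.40 ± 0.27 in KO and 10.45 ± 0.22 in WT tumours (SD over n = 5 tumours a group; 95% interval of the difference −0.40 to 0.30 log2, adjusted p = 0.879). All 3 probe sets of Slc38a2 were lower in KO, by −0.31 to −0.05 log2, each with overlap. Slc38a10 was at 11.53 ± 0.16 in KO and 11.71 ± 0.18 in WT tumours (−0.17 ± 0.12 log2, adjusted p = 0.471).

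**Figure D3:**
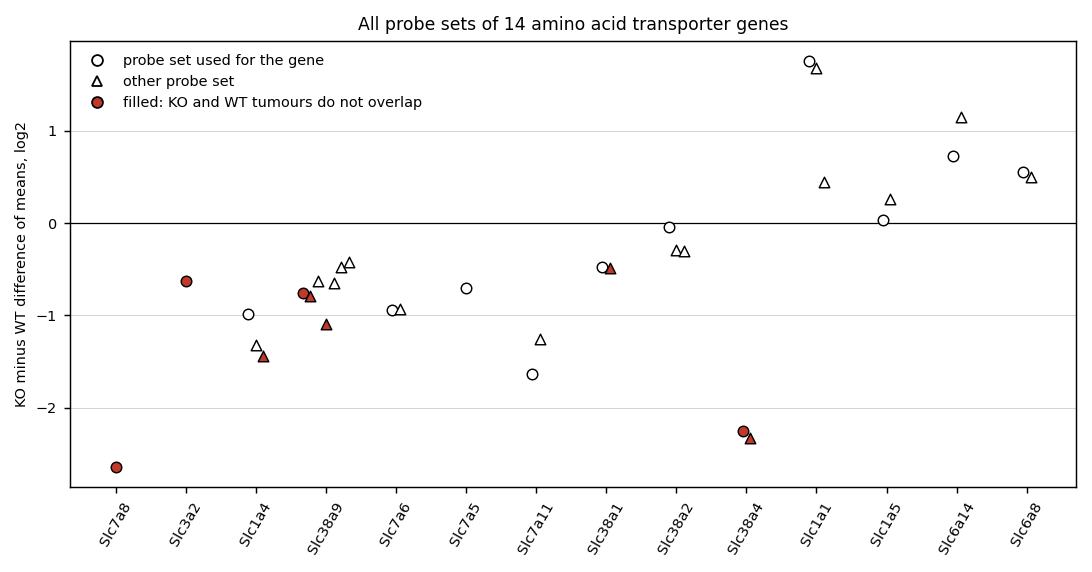
KO minus WT difference of means in log2 (y axis) for every probe set of 14 amino acid transporter genes; circles are the probe sets used for the gene, triangles the others, and filled symbols have no overlap between KO and WT tumours. All 7 probe sets of Slc38a9 and all 3 of Slc1a4 lie below 0, and all 3 of Slc1a1 above 0, whereas Slc7a8 and Slc3a2 have 1 probe set each.

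The cationic amino acid transporters, which carry arginine, lysine and ornithine, had 3 tested genes, and none passed. Slc7a1 was at 10.61 ± 0.27 in KO and 10.49 ± 0.31 in WT tumours (SD over n = 5 tumours a group; difference 0.13 ± 0.18 log2, adjusted p = 0.719). Slc7a2 was at 5.77 ± 0.25 in KO and 6.26 ± 0.63 in WT tumours (−0.51 ± 0.29 log2, adjusted p = 0.324), with all 4 probe sets lower. Slc7a4, a relative for which no transport by itself is known, was at 7.77 ± 0.24 in KO and 7.53 ± 0.18 in WT tumours (0.24 ± 0.14 log2, adjusted p = 0.360).

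Of the Slc6 genes, 7 of 21 were tested and none passed. Slc6a14 (ATB0,+), which takes up neutral and cationic amino acids at the luminal side of the colon, ran from 8.39 to 9.90 log2 in KO tumours, with a median of 9.03, and from 7.63 to 9.81 log2 in WT tumours, with a median of 8.06. WT tumours 1, 3 and 13 lay below the KO range and WT tumours 8 and 12 within it, and the difference was 0.71 ± 0.46 log2 (adjusted p = 0.404). The creatine carrier Slc6a8 was at 11.54, 11.05, 11.19, 11.66 and 11.28 log2 in KO tumours 2, 6, 7, 9 and 11, and at 9.87, 10.63, 11.51, 11.08 and 10.84 log2 in WT tumours 1, 3, 8, 12 and 13. The tumours overlap, with WT tumour 1 lowest, and the difference of 0.53 ± 0.28 log2 did not pass (adjusted p = 0.297). Within numbers 254 to 258, where WT tumour 1 is the only WT tumour, the same gene gave 1.51 ± 0.28 log2 (adjusted p = 0.0388), against 0.20 ± 0.35 log2 within numbers 191 to 229 (adjusted p = 0.893).

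The taurine carrier Slc6a6 was at 11.42 ± 0.13 in KO and 11.31 ± 0.35 in WT tumours (0.09 ± 0.17 log2, adjusted p = 0.803). The glycine carrier Slc6a9 was at 9.17 ± 0.35 in KO and 9.70 ± 0.60 in WT tumours (−0.53 ± 0.30 log2, adjusted p = 0.33). Slc6a2, the noradrenaline carrier of sympathetic neurons, lay near the level filter at 5.89 ± 0.12 in KO and 5.96 ± 0.15 in WT tumours (SD over n = 5 tumours a group; adjusted p = 0.724). The remaining tested Slc6 genes, Slc6a7 and Slc6a17, had adjusted p-values of 0.776 and 0.508. All 3 probe sets of Slc6a17 were lower in KO, by −0.88 to −0.16 log2, each with overlap.

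The Slc36 family of carriers had 3 tested genes with adjusted p-values from 0.432 to 0.970. Slc36a4 was at 7.20 ± 0.18 in KO and 7.48 ± 0.44 in WT tumours (SD over n = 5 tumours a group), a difference of −0.30 ± 0.21 log2. Slc36a1 was at 7.53 ± 0.31 in KO and 7.54 ± 0.40 in WT tumours, and Slc36a3 at 5.85 ± 0.14 in KO and 5.92 ± 0.06 in WT tumours. Slc43a2 (LAT4), a facilitative carrier that releases leucine and phenylalanine from epithelial cells, was at 11.35 ± 0.53 in KO and 10.82 ± 0.65 in WT tumours (0.52 ± 0.35 log2, adjusted p = 0.426). With the 3′ to 5′ signal difference of the array as a covariate, Slc43a2 passed as higher in KO (0.85 ± 0.16 log2, adjusted p = 0.0181). That difference ran from 0.71 to 1.17 log2 over KO arrays and from 0.78 to 1.14 over WT arrays, and its part in the result was not tested further. Slc43a3 was at 6.84 ± 0.48 in KO and 6.96 ± 0.60 in WT tumours (adjusted p = 0.853).

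For 16 of the 33 tested genes the difference was within 0.2 log2 of 0. Of the 29 genes that did not pass, 19 had a 95% interval that stayed within 1 log2 of 0, so that a 2-fold change lies outside their interval, and for the other genes the arrays leave larger differences possible. The intervals rest on the spread between tumours, several of which share a mouse, and background was not assessed. They therefore do not exclude a 2-fold change between genotypes.

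The 30 genes under the level filter are low signals whose relation to background was not assessed. Of these, 18 had a lower and 12 a higher mean in KO tumours, 19 differed by under 0.2 log2 and 3 by 1 log2 or more. The 3, and Slc1a7, were singled out after their values were seen. Slc38a4, a system A carrier best known from liver and placenta, was at 3.59, 3.54, 3.34, 3.51 and 3.65 log2 in KO tumours 2, 6, 7, 9 and 11, and at 7.56, 5.83, 4.66, 5.31 and 5.51 log2 in WT tumours 1, 3, 8, 12 and 13. All KO tumours were below all WT tumours on both probe sets of the gene, which differed by −2.25 and −2.33 log2. In the fit without a level filter Slc38a4 passed, at −2.22 ± 0.45 log2 (adjusted p = 0.0183).

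Slc7a9, the light chain of Slc3a1 that takes up cystine, was at 6.18, 6.12, 5.50, 6.19 and 7.41 log2 in KO tumours 2, 6, 7, 9 and 11, and at 5.15, 4.84, 5.13, 5.55 and 4.78 log2 in WT tumours 1, 3, 8, 12 and 13. KO tumour 7 and WT tumour 12 overlap slightly, and without a filter the gene did not pass (1.18 ± 0.31 log2, adjusted p = 0.0552). Slc6a20a, a carrier of proline and other imino acids, averaged 5.77 ± 0.73 in KO and 4.16 ± 1.31 in WT tumours (SD over n = 5 tumours a group) and overlapped in WT tumour 12, at 6.19 log2 (without a filter, adjusted p = 0.178). The glutamate carrier Slc1a7 did not overlap, at 5.49 ± 0.18 in KO and 5.92 ± 0.17 in WT tumours (without a filter, adjusted p = 0.0679). The luminal carrier of neutral amino acids of the small intestine, Slc6a19, was at 3.19 ± 0.16 in KO and 3.0 ± 0.19 in WT tumours, and the serotonin carrier Slc6a4 at 4.72 ± 0.45 in KO and 4.03 ± 0.24 in WT tumours.

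The tumours of a group differed among themselves. The median SD over the 33 genes was 0.25 log2 in KO and 0.32 log2 in WT tumours, with the WT SD larger for 23 genes (69.7%, against 56.2% of all genes tested). WT tumour 12 was the WT tumour nearest to the KO mean for 14 of the 33 genes (42.4%, against 24.1% of all genes), and WT tumour 1 for 1 gene (3.03%, against 16.3%). These shares are descriptions, since the genes share tumours and arrays. Leaving out WT tumour 1 left Slc7a8 and Slc3a2 past the threshold (adjusted p = 0.000981 and 0.0342), while Slc1a4 and Slc38a9 did not pass (adjusted p = 0.0629 and 0.0968). Leaving out WT tumour 12 left all 4 past it, and Slc7a11 passed as lower too (−2.17 ± 0.53 log2, adjusted p = 0.0389).

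**Figure D4:**
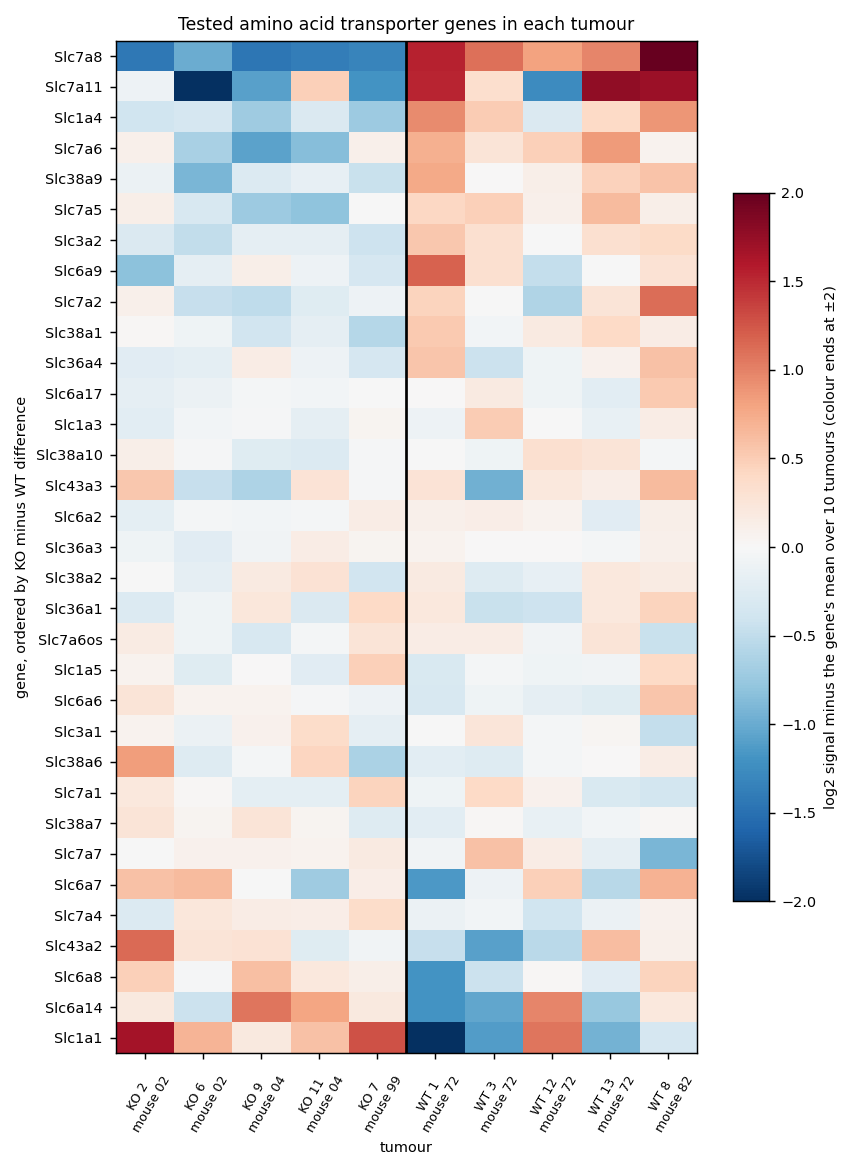
Log2 signal of the 33 tested amino acid transporter genes in each tumour, as the deviation from the gene's mean over the 10 tumours (colour, ending at 2 log2 units either side). The 5 KO tumours are left of the line and the 5 WT tumours right of it, ordered by mouse, and genes run from the most negative to the most positive KO minus WT difference. For Slc7a11 and Slc1a4, near the top, WT tumour 12 lies below the gene's mean and the other WT tumours above it.

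The calls were also computed by mouse and by number range, since these differ between the groups. With 1 mean per mouse, which sets 3 KO mice against 2 WT mice, Slc7a8 and Slc1a4 passed (−2.97 and −1.17 log2, adjusted p = 0.0150 and 0.0452), and Slc3a2 and Slc38a9 did not (−0.67 and −0.84 log2, adjusted p = 0.0714 and 0.0536). The only WT tumour within numbers 254 to 258 is tumour 1, the highest WT tumour for Slc3a2, Slc1a4 and Slc38a9. The differences in that range were −2.85 log2 for Slc7a8, −0.83 for Slc3a2, −1.38 for Slc1a4 and −1.13 for Slc38a9. Within numbers 191 to 229 they were −2.55, −0.66, −1.08 and −0.71 log2 for the same genes, and none passed (adjusted p = 0.174, 0.360, 0.454 and 0.439). Each range leaves 1 tumour in a group, whose spread is taken to equal that of the other tumours. Without mouse 02 only Slc7a8 passed (adjusted p = 0.00248). Without mouse 72 only WT tumour 8 remains, the WT tumour with the highest Slc7a8 signal, at 8.75 log2. All 4 differences were negative under every alternative in which the gene was tested, among them each tumour and each mouse left out. For Slc7a8, Slc3a2 and Slc38a9, whose groups do not overlap, leaving tumours out could not change the sign.

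**Figure D5:**
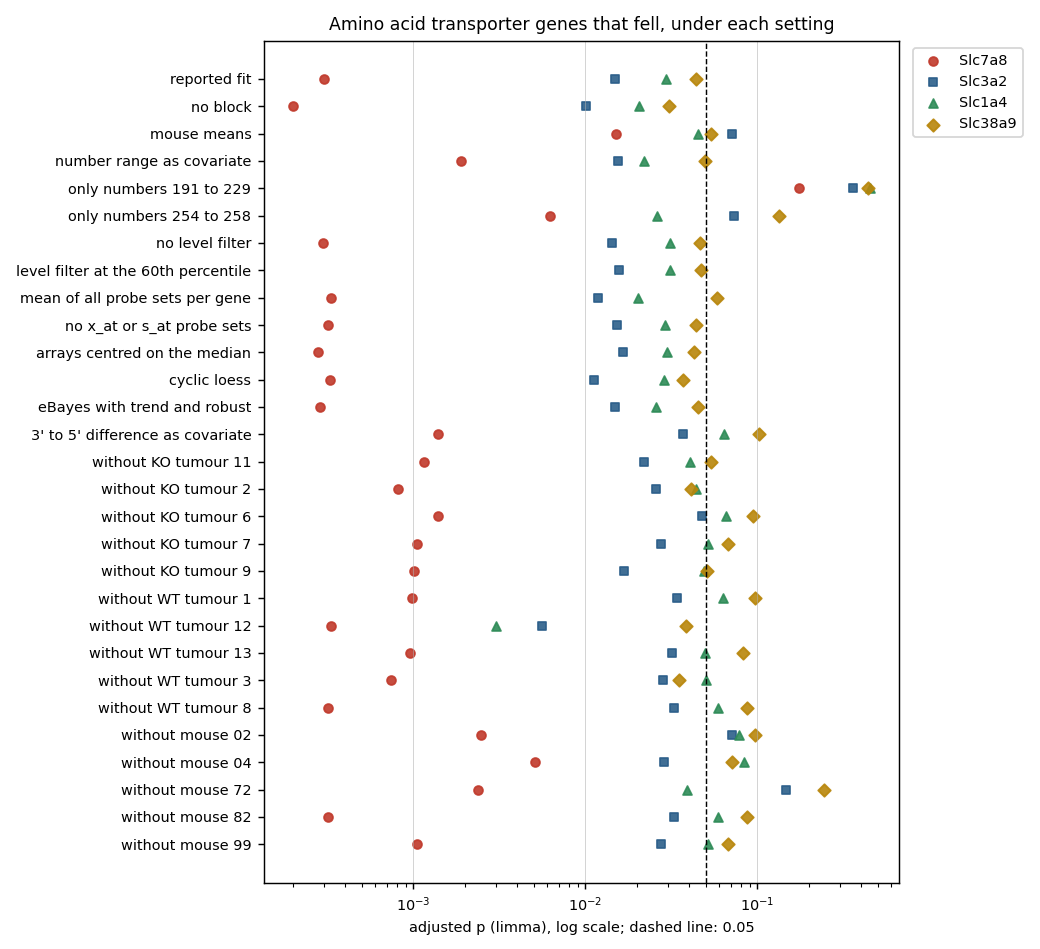
Adjusted p of the 4 genes that fell (limma, log axis) in the reported fit, in the top row, and under each alternative setting, with the threshold of 0.05 as a dashed line. Slc7a8 lies left of the line in all rows where it was tested except numbers 191 to 229, and Slc38a9 moves across it most often.

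Immune cell markers differed between the groups beside these results. Of 8 tested T cell and cytotoxic markers 6 rose in KO tumours, with a median difference of 1.73 log2, and their averaged signal was 6.72 to 7.58 log2 in KO tumours and 5.42 to 5.95 log2 in WT tumours. All 5 tested B and plasma cell markers rose, with a median of 2.68 log2 and an averaged signal of 7.92 to 8.62 log2 in KO tumours and 5.56 to 6.56 log2 in WT tumours. The WT means of 6 of the 8 T cell and 4 of the 5 B and plasma cell markers lay under the level filter, so these were tested through their KO signal, and the sizes of their differences are not exact. Cd14 was the myeloid marker of 9 that rose (1.91 ± 0.25 log2, adjusted p = 0.00186). For comparison with these 3 lists, 4.16% of all genes tested were called higher in KO tumours. None of the 10 epithelial, 7 fibroblast, 6 smooth muscle, 6 endothelial, 2 enteric neuron and glia, and 3 erythroid and platelet markers tested passed. The medians of these lists were 0.12 for epithelial, −0.37 for fibroblast, −0.02 for smooth muscle, −0.37 for endothelial, −0.12 for neuron and glia, and −0.41 log2 for erythroid and platelet markers. In those lists the markers with the smallest p were Vil1, Dcn, Des, Vwf, Sox10 and Alas2, with adjusted p-values of 0.0716, 0.214, 0.803, 0.215, 0.420 and 0.0783. Of the 10 epithelial markers 8 had a difference above 0. For Vil1 every KO tumour lay above every WT tumour, a separation that 5.33% of all genes showed. The part of the listed cell types in the transporter values was not tested.

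Genes around amino acid supply were read from lists chosen for their roles, with earlier results of these data known. In the list of other amino acid and peptide carriers and surface partners, with 13 tested genes, 1 fell and 1 rose, and the median was 0.01 log2. Of all genes tested, 2.93% fell and 4.16% rose. Slc16a10 (TAT1), which lets aromatic amino acids out across the basolateral membrane, was at 7.16, 7.61, 6.91, 7.16 and 7.61 log2 in KO tumours 2, 6, 7, 9 and 11, and at 9.76, 8.57, 10.08, 8.25 and 9.46 log2 in WT tumours 1, 3, 8, 12 and 13. The groups did not overlap, with a difference of −1.97 ± 0.35 log2 (adjusted p = 0.00890, limma), a 3.91-fold lower level in KO. Slc15a4, a lysosomal carrier of histidine and peptides in immune cells, rose, at 8.04 ± 0.10 in KO and 7.55 ± 0.23 in WT tumours (SD over n = 5 tumours a group; 0.48 ± 0.13 log2, adjusted p = 0.0459).

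Among 15 tested genes of the amino acid deprivation response, 1 fell and 0 rose, with a median of 0.08 log2. That gene was the transcription factor Atf5, at 7.99 ± 0.17 in KO and 8.56 ± 0.23 in WT tumours (−0.56 ± 0.13 log2, adjusted p = 0.0326). Of 9 serine, glycine and one-carbon enzymes, 1 fell, Psat1 of serine synthesis (−0.84 ± 0.20 log2, adjusted p = 0.0309). Of 12 enzymes of glutamine, glutamate, proline and branched-chain amino acids, 1 fell, Glul, the glutamine synthetase (−0.71 ± 0.18 log2, adjusted p = 0.0373). Of 20 genes of lysosomal sensing and mTORC1, 1 fell, Castor2, a relative of the arginine sensor Castor1 (−0.88 ± 0.20 log2, adjusted p = 0.0286). The median differences of these 3 lists were −0.10, −0.05 and 0.01 log2. For each of the 4 genes named here, which were picked because they passed as lower, the KO tumours lay below all WT tumours. Over all genes tested, 2.93% were called lower and 3.79% had such a separation.

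Arginine, polyamine and tryptophan enzymes had 3 genes that rose among 9 tested, and a median of 0.51 log2. Wars was counted here and not with the aminoacyl-tRNA synthetases. Over all genes tested, 4.16% rose. Ido1, which degrades tryptophan, rose by 4.98 ± 0.88 log2 (adjusted p = 0.00846), the tryptophanyl-tRNA synthetase Wars by 1.96 ± 0.31 log2 (adjusted p = 0.00421) and the nitric oxide synthase Nos2, which consumes arginine, by 1.88 ± 0.49 log2 (adjusted p = 0.0445). The WT means of Ido1 and Nos2, at 5.70 and 5.64 log2, lay under the level filter. Both were thus tested through their KO signal, and their differences are not exact. All of these genes are known to be induced by interferon gamma. Of 13 cystine and glutathione genes 3 rose, with a median of 0.18 log2. They were the glutathione peroxidases Gpx1 (0.58 ± 0.11 log2, adjusted p = 0.0130) and Gpx2 (1.02 ± 0.22 log2, adjusted p = 0.0208) and the glutamate-cysteine ligase subunit Gclm (0.57 ± 0.13 log2, adjusted p = 0.0266). Of 16 other aminoacyl-tRNA synthetases 1 rose, the lysyl enzyme Kars (0.64 ± 0.11 log2, adjusted p = 0.00853), and the median was 0.10 log2.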

How the data were processed

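Log2 signals per probe set were deposited for Affymetrix mouse arrays, made by the authors with RMA, per the submitters' processing notes (version and build not given in the sources used here). The extraction protocol mentions pooling by mouse, yet several arrays are listed per mouse, and each array was taken as 1 tumour, as listed. Of 45101 probe sets, 34945 had 1 gene symbol, 932 had several, 9160 had none listed and 64 were controls. Symbols were updated by Entrez identifier for 34741 (mouse assembly GRCm38.p6), and 204 kept the annotation's name. Each gene was read from its probe set of highest mean. Genes whose mean reached 5.82 log2, the 40th percentile over the array, were tested with limma 3.58.1 (R 4.3.3, statmod 1.5.0; lmFit, eBayes, duplicateCorrelation by mouse, correlation 0.0586), adjusted by Benjamini-Hochberg. The fit was tested on simulated data. Differences are model estimates and can depart slightly from those of the means. Precision is limited by how few arrays and mice there are, and p-values measure the spread between tumours, several of which share a mouse.

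The genes and lists were chosen with earlier results of these data known. Named were the genes that passed, in each role the 2 with the smallest p and the one with the highest mean, and from each other list the up to 3 that passed with the smallest p, or else the one with the smallest p. Others were singled out after their values were seen. As alternatives the fit was run without the block, on mouse means, with the number range as a covariate or within each range, with 2 other level filters, on averaged probe sets, without x_at or s_at probe sets, after median centring or cyclic loess, with trend and robust eBayes, with the array's 3′ to 5′ signal difference as a covariate, and with each tumour or mouse left out.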

Additional observations from a re-analysis of the deposited data

Results flagged for a closer look

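Among 126 groups of 5 tumours, 63 genes in 2 groups, the gap between the highest or lowest tumour and its nearest neighbour was large for the group's range (Dixon's 95% critical value) in 5, and chance alone flags about 1 in 20 groups. Slc7a8 in KO tumour 6 was at 5.56 log2, above the nearest KO tumour at 5.23, and still below every WT tumour. The taurine carrier Slc6a6 in WT tumour 8 was at 11.92 log2, the nearest WT tumour being at 11.27. Slc6a2 in WT tumour 13 was at 5.70 log2, the nearest at 6.00. For genes under the level filter, Slc6a15, a brain carrier of branched-chain amino acids, was at 2.50 log2 in KO tumour 9 with the nearest at 2.23, and Slc6a18, a kidney carrier of neutral amino acids, was at 5.54 log2 in WT tumour 3 with the nearest at 5.41.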

How the results depend on the processing

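Over 28 alternatives, 0 of the called differences reversed. The counts of genes that fell or rose leave out the settings with 1 tumour in a group (each number range alone, and without mouse 72). Against 4 that fell in the reported fit, 2 fell over mouse means and with the 3′ to 5′ covariate. Over all genes tested, 359 fell in the reported fit, 193 over mouse means and 217 with that covariate. Leaving out 1 tumour gave 2 to 6 that fell and 0 to 1 that rose, while 186 to 406 of all genes fell. Without mouse 02 there was 1 that fell, and 2 without mouse 04 and without mouse 82. Over all genes tested, 230 fell without mouse 02, 202 without mouse 04 and 286 without mouse 82. Against 0 that rose, 1 rose with the number range as a covariate (Slc1a1) and 1 with the 3′ to 5′ covariate (Slc43a2). Of all genes, 390 and 331 rose in those settings, against 509 in the reported fit. The settings that leave tumours or mice out hold fewer tumours, and the cause of these changes was not tested. Slc7a8 passed in 26 of the 27 alternatives that tested it (the filter at the 60th percentile dropped it), Slc3a2 in 23 of 28, Slc1a4 in 17 of 28 and Slc38a9 in 11 of 28, with adjusted p-values up to 0.174, 0.360, 0.454 and 0.439. With the mean of all probe sets Slc38a9 did not pass (adjusted p = 0.0581). Among genes not called in the reported fit, Slc7a6 passed in 4 of 28, Slc38a1 in 3 of 28 and Slc1a1 in 3 of 27. Slc7a5 and Slc43a2 passed in 1 of 28 each, and Slc7a11 in 1 of 27. Of 908 values of single genes, 60, in 14 genes, changed sign with neither value past the threshold. Of 952 counts of the lists, 835 stayed within 1.5 times. Replicate numbers are not shared between the groups. Signal over background was not assessed, so small differences at low signal are not interpretable.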
